A study of Mus musculus with 2 samples.

Results

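The Hox genes encode homeodomain transcription factors that are arranged in 4 clusters, Hoxa on mouse chromosome 6, Hoxb on chromosome 11, Hoxc on chromosome 15 and Hoxd on chromosome 2. The members described here are the probe sets whose annotation names a Hox cluster gene and no other gene, taken in order of cluster and paralogue number. They numbered 48 probe sets for 33 genes, out of 45101 probe sets on the array and 18193 genes named by a probe set of their own. Hox genes with no probe set naming them alone have no signal here and enter at most the promoter counts.

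Signals came from 2 Affymetrix expression arrays, 1 per genotype, of cells taken on day 4 of pregnancy, when the uterus can receive the embryo, from mice labelled C57BL/6. The control array was from mice with floxed Msx1 and Msx2, and the null array from mice in which both floxed genes had been ablated with a Cre recombinase expressed from the progesterone receptor locus (PRcre), which acts in any uterine cell that expresses that receptor. Msx1 and Msx2 are themselves homeobox transcription factors. The females had been mated to fertile males, and their uterine pieces were incubated in 1% trypsin before the epithelium was squeezed out. The labels give epithelial cells from 5 mice per genotype in the treatment text and stromal cells from 4 per genotype in the extraction text; the cell type field says epithelial. The labels do not say whether an array held RNA pooled from several mice. With 1 array per genotype no difference has a replicate check, no test could be made, and precision is limited by the number of arrays.

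Hox proteins give cells positional identity along the body axis, with low paralogue numbers acting towards the head and high ones towards the tail. Genes of a cluster lie in the order in which they are used and are often active in contiguous blocks, held open or silent by trithorax and Polycomb chromatin proteins. In the female tract the posterior Hoxa genes pattern the Müllerian duct into oviduct, uterus, cervix and vagina. Hoxa10 and Hoxa11 stay active in the adult uterus, where both are needed for implantation and are known as progesterone-responsive genes of the stroma. TALE homeodomain proteins (Pbx, Meis and Pknox) bind DNA together with Hox proteins.

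Promoters from RefSeq (assembly GRCm38.p6) were available for 19 of the 33 member genes. Those of 4 genes above background on both arrays are shown, as the 250 bases before the annotated start, because these genes stand for the blocks of the Hoxb, Hoxa and Hoxd clusters described below; capitals mark CG dinucleotides. Hoxb4 lies at chr11:96318017-96318266 on the plus strand, Hoxa11 at chr6:52245811-52246060 on the minus strand, Hoxd8 at chr2:74704365-74704614 and Hoxd10 at chr2:74691641-74691890, both on the plus strand.
Hoxb4: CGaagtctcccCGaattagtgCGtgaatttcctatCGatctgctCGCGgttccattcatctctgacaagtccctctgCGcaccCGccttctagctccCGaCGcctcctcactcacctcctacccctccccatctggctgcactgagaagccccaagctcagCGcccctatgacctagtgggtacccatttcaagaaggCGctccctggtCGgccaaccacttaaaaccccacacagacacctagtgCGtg
Hoxa11: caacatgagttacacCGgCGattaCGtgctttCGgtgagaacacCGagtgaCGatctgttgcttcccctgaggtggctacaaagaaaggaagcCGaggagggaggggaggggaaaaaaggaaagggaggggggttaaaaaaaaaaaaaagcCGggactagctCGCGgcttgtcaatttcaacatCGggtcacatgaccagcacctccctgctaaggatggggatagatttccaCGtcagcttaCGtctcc
Hoxd8: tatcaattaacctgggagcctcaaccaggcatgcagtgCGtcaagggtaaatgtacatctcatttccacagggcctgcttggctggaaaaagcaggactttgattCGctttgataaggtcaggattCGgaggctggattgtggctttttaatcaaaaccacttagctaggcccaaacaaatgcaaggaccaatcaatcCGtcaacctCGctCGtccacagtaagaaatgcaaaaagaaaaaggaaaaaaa
Hoxd10: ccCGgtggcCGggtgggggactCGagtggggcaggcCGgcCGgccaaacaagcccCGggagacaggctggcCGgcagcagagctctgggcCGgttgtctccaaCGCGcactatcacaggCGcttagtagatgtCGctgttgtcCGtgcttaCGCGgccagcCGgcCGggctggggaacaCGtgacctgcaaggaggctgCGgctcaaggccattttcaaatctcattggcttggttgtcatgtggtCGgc

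Hox promoters in the table held many CG dinucleotides. The median was 12.5 per 250 bases over 24 Hox promoters of 22 genes, against 6 over all 32851 promoters, and the stretches shown held 14 for Hoxb4, 13 for Hoxa11, 6 for Hoxd8 and 20 for Hoxd10. TAATTG, a core that Msx and many other homeodomain proteins bind, was searched on both strands. It was found in 1 of the 24 Hox promoters, that of Hoxd8, as CAATTA at positions -247 to -242 counted from the start, and in 7.17% of all promoters. TGATNNAT, a joint site of Hox and Pbx proteins, was found in 4 Hox promoters (16.7%; 7.68% of all promoters), those of Hoxa2, Hoxb1, Hoxb8 and Hoxd11. TGACAG, bound by Meis and Pknox proteins, was found in 2 (8.33%; 15.9% of all promoters), those of Hoxa2 and Hoxa3. No match of these motifs overlapped another.

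The deposited values are MAS5 signals, a linear measure of brightness per probe set. Signals under the median of all non-control probe sets over both arrays, 21.1, were treated as background (the floor). Of the 33 Hox genes, each taken at its brightest probe set, 13 reached the floor on both arrays, 2 only in the control, 2 only in the null and 16 nowhere. Thus 51.5% of Hox genes were measured on at least 1 array, against 64.1% of all genes. Probe sets differ in how strongly they bind, so the order of brightness below is not an order of RNA amounts. In cells separated from tissue, fewer cells of a type and less RNA per cell cannot be told apart.

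Above the floor, the members lay mostly in contiguous blocks of their clusters. In the Hoxb cluster these were Hoxb2, Hoxb3, Hoxb4, Hoxb5 and Hoxb6, then Hoxb9; in the Hoxa cluster Hoxa9, Hoxa10 and Hoxa11; and in the Hoxd cluster Hoxd8, Hoxd9 and Hoxd10. Members at either end of these clusters, Hoxa2 and Hoxa13, Hoxb1 and Hoxb13, and Hoxd1 and Hoxd13, were below it on both arrays. Of the 7 Hoxc genes, Hoxc6 alone was above the floor on both arrays, Hoxc4 was above it in the control only, and Hoxc8 and Hoxc9 in the null only. Hoxa9 to Hoxa11, Hoxb2 to Hoxb6 and Hoxd8 to Hoxd10 were above the floor whichever array was read.

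**Figure D1:**
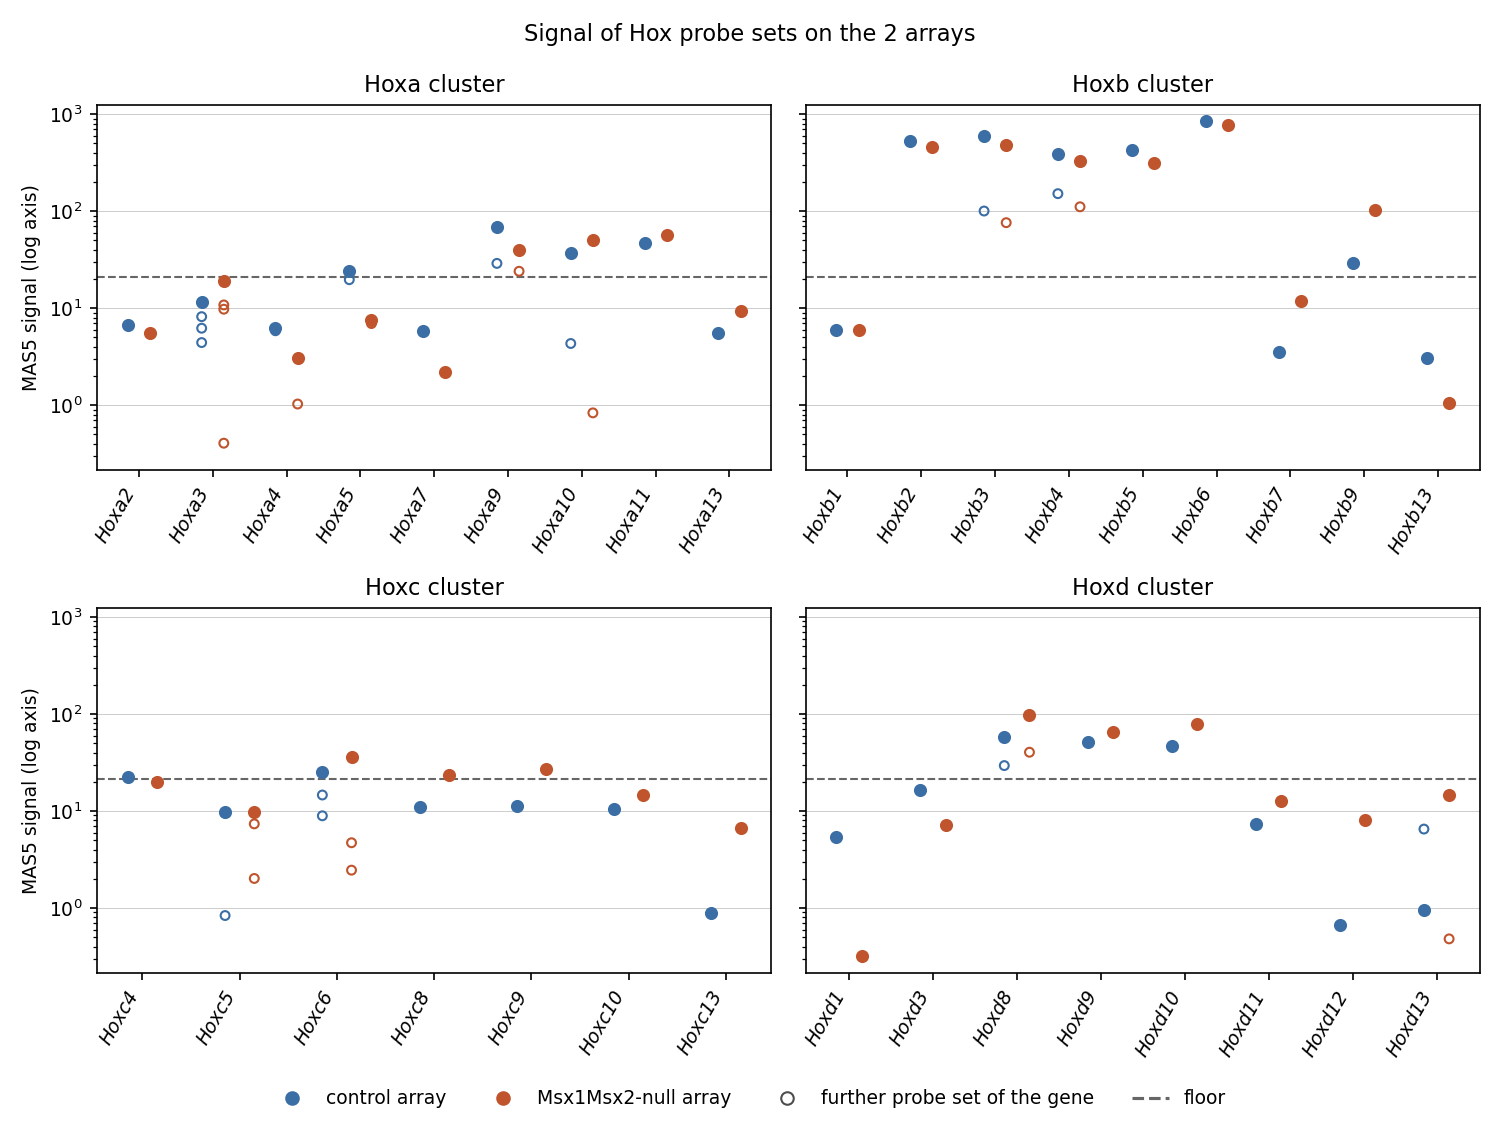
MAS5 signal (log axis) of the 48 Hox probe sets on the control array (blue) and the Msx1Msx2-null array (orange), by cluster and paralogue number; filled points are the brightest probe set of a gene, open points its further probe sets, and the dashed line is the floor of 21.1. By their brightest probe sets Hoxb2 to Hoxb6 lie between 312 and 843 on both arrays, while 16 genes lie below the floor on both.

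Counts past 2-fold among the Hox genes were near those of all genes. Among the 17 measured on at least 1 array, 1 (5.88%) was at least 2-fold higher in the null, where 7.73% of all 11662 measured genes were, and none was at least 2-fold lower, where 4.75% of all measured genes were. Signs were split, with 9 above 0 and 8 below 0, where 57.0% of all measured genes were above 0. Their median log2 difference (null minus control) was 0.16, against 0.08 for all measured genes. With the arrays set to their spike-in controls both medians fell below 0, to -0.04 and -0.20, and with a floor at the 67th percentile the median of the 8 Hox genes still measured was -0.18, against 0.07 for all genes. At 1.5-fold, 3 of 17 were higher (17.6%; 17.5% of all genes) and 1 was lower (5.88%; 12.0% of all genes). With 17 genes these shares show nothing particular to the family. The only gauge of error was the spread of log2 differences between probe sets of a gene, with a standard deviation of 0.38 over 4645 genes, which holds no spread between animals.

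**Figure D2:**
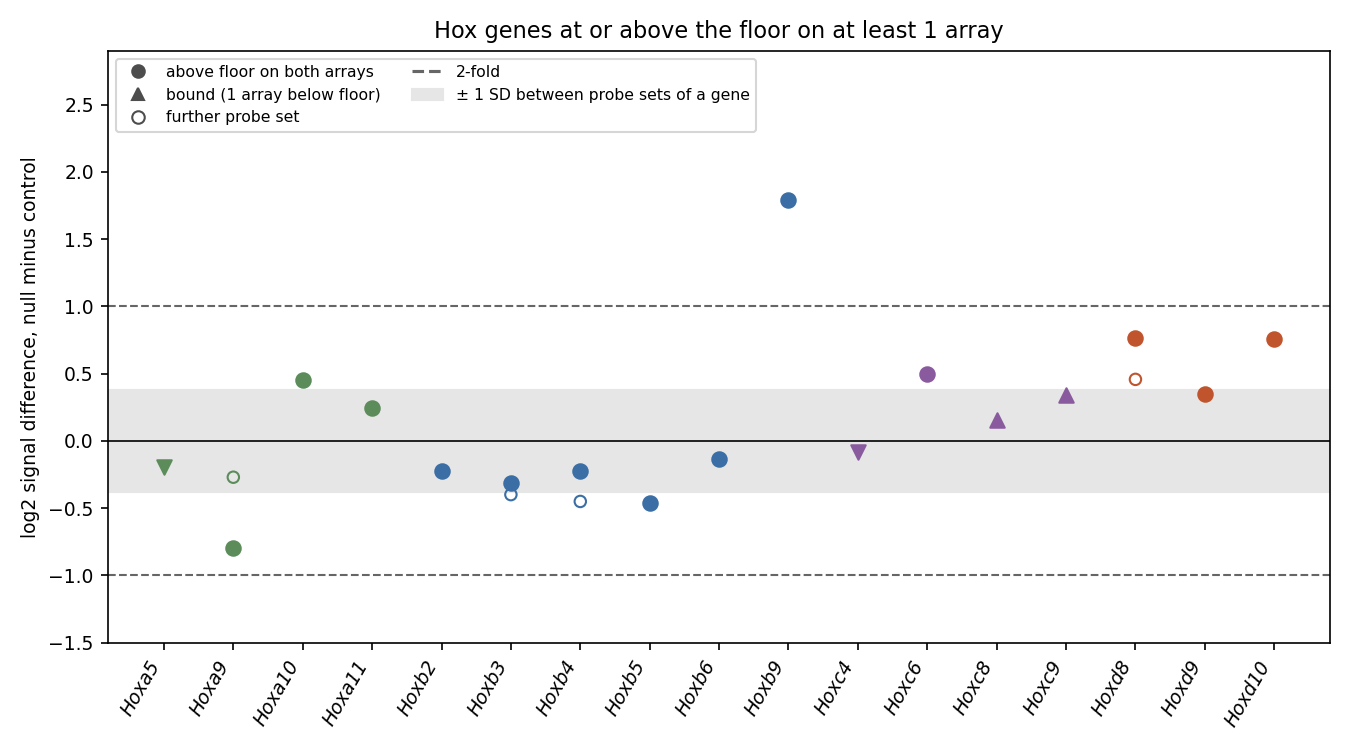
Log2 signal difference (null minus control) of the 17 Hox genes measured on at least 1 array, coloured by cluster; open circles are further probe sets, triangles are bounds where 1 array was below the floor, dashed lines mark 2-fold and the grey band is ± 0.38, the standard deviation between probe sets of a gene. Hoxb9 at 1.79 is the point beyond 2-fold, Hoxb2 to Hoxb6 lie below 0, and Hoxd8 to Hoxd10 above 0.

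Hoxb9, a posterior gene that acts in thoracic and mammary patterning with its paralogues, was the member with the largest difference. Its signal was 29.5 in control cells and 102 in null cells, 3.46-fold higher (log2 1.79). Of all 11662 measured genes, 259 (2.22%) were at least as much higher in the null. Large differences were more common at its brightness. Of the 1180 genes with a mean signal of 43.4 to 74.6, a range that holds Hoxb9, 14.7% were at least 2-fold higher. Of all measured genes 7.73% were. The share at least 3.46-fold higher in that range was not taken. Hoxb9 had 1 probe set, so no further probe set checks its size, and its control signal was close to the floor. At a higher floor, the 67th percentile of signals, its log2 difference was a bound of 0.49.

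The anterior and central Hoxb genes were bright on both arrays and slightly dimmer in the null. Hoxb2, known from hindbrain segments, read 531 in control cells and 456 in null cells (log2 -0.22). Hoxb3 read 595 and 479 (log2 -0.31) and, by its further probe set, 100 and 76.0 (log2 -0.40). Hoxb4, best known for its part in blood stem cells, read 387 and 332 (log2 -0.22), with its further probe set at 151 and 111 (log2 -0.45). Thus both probe sets of Hoxb3 and of Hoxb4, and the single one of Hoxb2, were lower in the null.

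Hoxb5, which acts in the gut and lung, read 430 and 312 (log2 -0.46), the largest deficit of the block. Hoxb6 read 843 and 769 (log2 -0.13). All 7 probe sets of the 5 genes were lower in the null, by 0.13 to 0.46 on the log2 scale, or 1.10-fold to 1.38-fold for the brightest probe set of each gene. That size is close to the disagreement between probe sets of a gene. Of the 2039 genes with a mean signal in the same range (358 to 805), 46.8% were lower in the null, their median log2 difference was 0.03 and their quartiles were -0.29 and 0.32. The 5 genes were grouped after their values were seen. A further probe set that names 2 genes, the first with a Hoxb symbol, was assigned to neither and read 704 and 674. The probe set naming Hoxb7 alone was below the floor on both arrays (3.51 and 11.9).

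In the Hoxa cluster the 3 posterior genes above the floor did not share a direction. Hoxa9, linked to the oviduct in Müllerian patterning, read 68.7 in control cells and 39.6 in null cells, 1.74-fold lower (log2 -0.80). Its further probe set read 28.9 and 24.0 (log2 -0.27), so the direction was shared and the size was not. Of measured genes, 7.52% were at least as much lower as Hoxa9.

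Hoxa10, a regulator of implantation and of the stromal response to progesterone, read 37.1 in control cells and 50.7 in null cells (log2 0.45, 1.37-fold). Its further probe set was below the floor on both arrays (4.32 and 0.83). Hoxa11, which acts in uterine gland formation and implantation, read 47.5 and 56.3 (log2 0.25, 1.19-fold). Both differences are of the size seen between probe sets of a gene, and with the arrays set to their spike-in controls that of Hoxa11 was -0.04. Thus neither Hoxa gene tied to uterine receptivity reached 2-fold on these arrays.

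Hoxa5, known from lung and mammary development, was the other Hoxa gene measured, on the control array only. It read 24.2 in the control and 7.61, below the floor, in the null, which allows only a bound of at least 1.14-fold lower (log2 -0.19). Its further probe set was below the floor on both arrays (19.6 and 6.93). With the floor at the 33rd percentile of signals the bound was -1.49, past 2-fold.

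The 3 Hoxd genes above the floor were all higher in the null, none of them 2-fold. Hoxd8 read 57.3 in control cells and 97.3 in null cells (log2 0.76, 1.70-fold), with its further probe set at 29.4 and 40.4 (log2 0.46). Hoxd9 read 51.5 and 65.7 (log2 0.35, 1.28-fold). Hoxd10, which with its paralogues patterns the hindlimb, read 46.3 and 78.2 (log2 0.75, 1.69-fold), and 12.3% of measured genes were at least as much higher. Together with Hoxa9 to Hoxa11 these genes had a median log2 difference of 0.40, and 5 of the 6 were above 0. Of the 1180 genes with a mean signal in the same range (43.4 to 74.6), 38.9% were lower in the null, 14.7% were at least 2-fold higher and the median was 0.20, so genes of that brightness were on the whole higher in the null. These 6 genes, too, were grouped after their values were seen.

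The Hoxc genes lay near or below the floor. Hoxc6, which acts in thoracic patterning, read 25.4 in control cells and 35.9 in null cells (log2 0.50, 1.41-fold) by a probe set whose sequence is shared with other transcripts, and its 2 further probe sets were below the floor on both arrays. Hoxc8 read 11.0 and 23.5, at least 1.11-fold higher, and Hoxc9 read 11.4 and 26.8, at least 1.27-fold higher. Both crossed the floor only in the null, and with the floor at the 33rd percentile their log2 differences were 1.10 and 1.24, past 2-fold. Hoxc4 read 22.4 and 19.8, at least 1.06-fold lower. Whether Hoxc genes differed could not be settled at these signals.

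Paralogues, the genes of like number in different clusters, shared a sign in some groups and not in others. Among group 9 genes the log2 difference was -0.80 for Hoxa9, 1.79 for Hoxb9 and 0.35 for Hoxd9, with a bound of 0.34 for Hoxc9. In group 10 Hoxa10 stood at 0.45 and Hoxd10 at 0.75, while Hoxc10 was below the floor on both arrays (10.5 and 14.8). Of the 7 measured genes of groups 9 to 13, 6 were above 0, with a median of 0.35. Of the 8 measured genes of groups 4 to 8, 3 were above 0, with a median of -0.11. The 2 measured genes of groups 1 to 3, Hoxb2 and Hoxb3, were below 0. Of all measured genes 57.0% were above 0, with a median of 0.08. The signs of Hoxa5, Hoxc4, Hoxc8 and Hoxc9 rest on bounds. Brightness differed as well: genes in the signal range of Hoxb2 to Hoxb6 had a median of 0.03. Those in the range of Hoxa9 to Hoxa11 and Hoxd8 to Hoxd10 had a median of 0.20. A trend along the clusters was not tested.

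The 16 genes below the floor on both arrays had signals from 0.66 to 16.3 in the control and from 0.32 to 19.2 in the null. They were Hoxa2, Hoxa3, Hoxa4, Hoxa7 and Hoxa13; Hoxb1, Hoxb7 and Hoxb13; Hoxc5, Hoxc10 and Hoxc13; and Hoxd1, Hoxd3, Hoxd11, Hoxd12 and Hoxd13. They include Hoxa13 (5.60 and 9.39), the Hoxa gene of the vaginal end of the tract. All 4 probe sets of Hoxa3 were below the floor. At such signals ratios are noise-bound, and no difference is given.

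**Figure D3:**
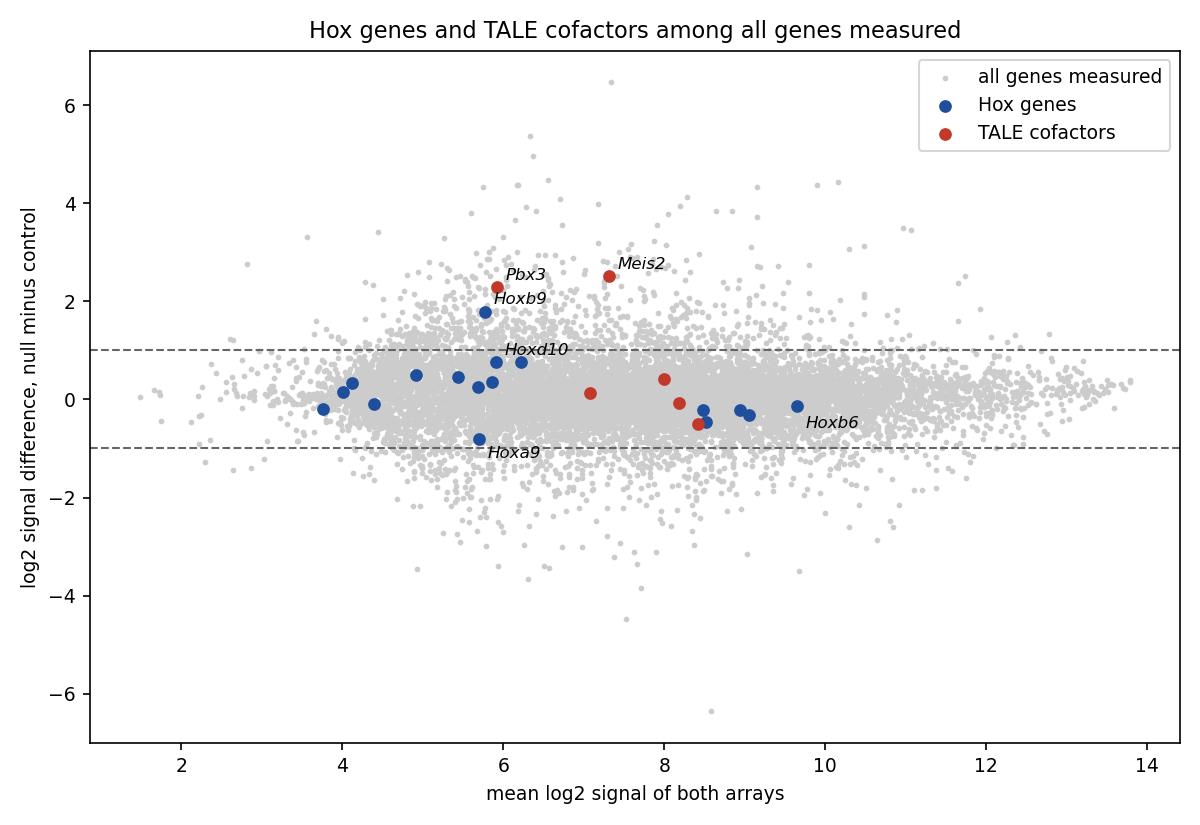
Log2 signal difference (null minus control) against the mean log2 signal of both arrays for the 11662 genes measured on at least 1 array (grey), with the 17 Hox genes in blue and 6 TALE cofactors in red; dashed lines mark 2-fold. Hoxb9, Meis2 and Pbx3 lie above the upper line, and the other Hox genes lie within the cloud of genes of like signal.

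Of the genes of Hox partner proteins, 2 of 6 measured TALE cofactors, Meis2 and Pbx3, were past 2-fold upwards (7.73% of all genes) and none downwards (4.75% of all genes), with a median log2 difference of 0.28, or -0.01 by spike-in controls. Meis2, which encodes a TALE partner of Hox proteins, read 67.01 in control cells and 381 in null cells, 5.68-fold higher (log2 2.51). Its further probe sets gave 2.04, 1.82 and 0.74, so all 4 were higher and the size ranged from 1.67-fold to 5.68-fold. When probe sets of shared or alternative sequence were left out, none of these genes was past 2-fold upwards and Meis1 was past it downwards. Meis2 then stood at 0.74, Meis1 at -1.24, and Pbx3 had no value. Pbx3, of the Pbx family that binds DNA jointly with Hox proteins, read 27.6 and 134, 4.87-fold higher (log2 2.28). Its further probe set crossed the floor, from 16.3 to 83.4, at least 3.95-fold higher. With the floor at the 67th percentile the control signal of Pbx3 lay below it. That left a log2 bound of 0.88, which does not settle whether Pbx3 was past 2-fold.

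The other TALE genes, each at its brightest probe set, lay between -0.50 and 0.42. Meis1, which shares its binding site with Meis2, had probe sets that disagreed: 298 and 282 by the brighter (log2 -0.08), and 336 and 143 by another (log2 -1.24), with -0.66 as their median. Pbx2 read 407 and 289 (log2 -0.50), with further probe sets at -0.31 and -0.01. Pknox1, at 3 probe sets, lay between 0.14 and 0.31 (-0.15 at its brightest by spike-in controls), and Pknox2 read 221 and 295 (log2 0.42). Pbx4 and Meis3 were below the floor on both arrays.

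**Figure D4:**
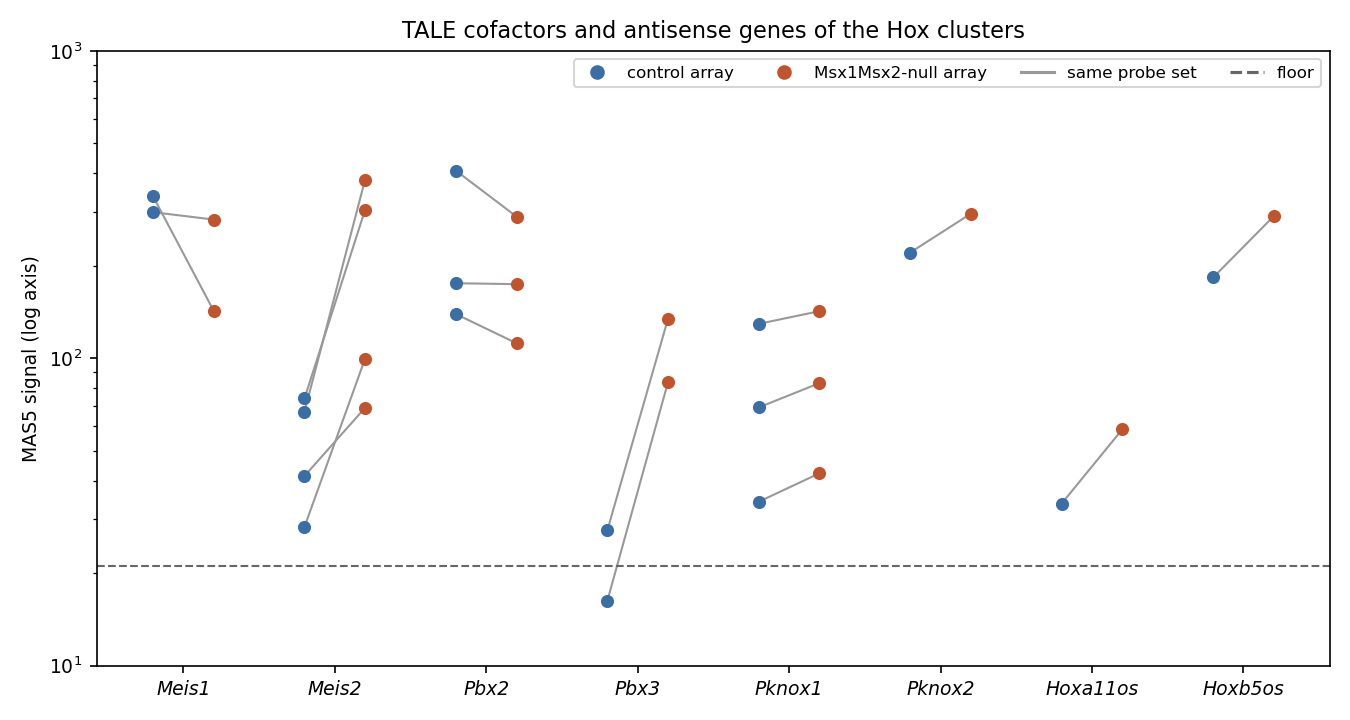
MAS5 signal (log axis) of each measured probe set of 6 TALE cofactors and of 2 antisense genes of the Hox clusters, on the control array (blue) and the null array (orange); grey lines join the values of a probe set and the dashed line is the floor of 21.1. All lines of Meis2 and Pbx3 rise, the 2 lines of Meis1 differ in slope, and Hoxa11os and Hoxb5os are higher in the null.

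Antisense transcripts of the clusters were higher in the null at 2 loci. Hoxb5os, whose annotated span covers both Hoxb5 and Hoxb6, read 183 in control cells and 290 in null cells (log2 0.66, 1.58-fold), opposite in sign to those genes. Hoxa11os, which overlaps the start of Hoxa11 and is known to lie antisense to it in the uterus, read 33.7 and 58.7 (log2 0.80, 1.74-fold), with its further probe set below the floor on both arrays. Neither reached 2-fold. The strand that each probe set reads was not checked here, so signal from overlapping transcripts cannot be told apart. Hoxd3os1, named after its values were seen, was below the floor at both of its probe sets.

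Polycomb and trithorax group genes maintain Hox expression states. Of 27 measured Polycomb group genes, which keep Hox clusters silent, 1 was past 2-fold upwards at its brightest probe set (7.73% of all genes). None was past it downwards (4.75% of all genes). Further probe sets passed it downwards for Pcgf6 (130 and 50.7, log2 -1.36) and Jarid2 (1922 and 955, log2 -1.01). At brightest probe sets 17 of 27 genes were below 0 (43.0% of all genes), with a median of -0.16. By spike-in controls 22 of 27 were, with a median of -0.45. Phf19, which helps Polycomb complex 2 bind chromatin, was the gene past 2-fold upwards, from 22.2, close to the floor, to 102 (4.57-fold). With the 67th percentile floor it had a log2 bound of 0.48. Rbbp7 was 1.97-fold higher and Phf1 1.71-fold lower. Pcgf5 was 1.71-fold higher (111 and 190), but a further probe set read 82.8 and 84.8 (log2 0.04). Trithorax group genes and H3K27 demethylases keep Hox genes active. None of the 17 measured reached 2-fold at its brightest probe set. Further probe sets passed it downwards for Kdm6a (113 and 42.3, log2 -1.42) and Psip1 (993 and 493, log2 -1.01). At brightest probe sets 12 of 17 were below 0 (43.0% of all genes), with a median of -0.20. Mllt3 stood at -0.85, Psip1 at -0.85, Kmt2d at -0.59 and Kdm6a at -0.42. By spike-in controls 15 of 17 were below 0, with a median of -0.49. Of the Polycomb and trithorax lists, 3 genes then passed 2-fold downwards at their brightest probe sets (8.96% of all genes). They were Phf1 at -1.06, and Mllt3 and Psip1 both at -1.14.

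Genes flanking the clusters went both ways. Of 15 measured flanking genes 2 were past 2-fold upwards (7.73% of all genes) and 1 downwards (4.75% of all genes). Their median was 0.01, or -0.29 by spike-in controls. Beyond the Hoxa cluster Snx10 was 2.32-fold lower (1052 and 454) and Jazf1 1.87-fold higher, beyond Hoxb Snx11 was 2.16-fold higher (log2 0.82 by spike-in controls, short of 2-fold), and near Hoxc the heterochromatin gene Cbx5 was 2.80-fold higher. Mtx2, next to the Hoxd cluster, stood at 0.01 (510 and 512), and the even-skipped homeobox genes Evx1 and Evx2, which adjoin the Hoxa and Hoxd clusters, were below the floor on both arrays.

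Genes that patterning work ties to Hoxa10 and Hoxa11 went both ways as well. At brightest probe sets 3 of 20 measured genes were past 2-fold upwards (7.73% of all genes) and none downwards (4.75% of all genes). Of genes not so called, further probe sets passed 2-fold for Pgr (52.7 and 293, log2 2.47) and Wnt5a (54.9 and 26.5, log2 -1.05). At brightest probe sets the median of the list was 0.11, or -0.16 by spike-in controls. Emx2, a homeobox gene that Hoxa10 represses in the endometrium, read 827 in control cells and 1828 in null cells, 2.21-fold higher (log2 1.14), and was 0.85 with the arrays set to their spike-in controls. Cdkn1a, a CDK inhibitor, was 2.14-fold higher, Wnt4, a Wnt ligand of the decidual response, 2.01-fold higher, and the prostaglandin receptor gene Ptger3 1.74-fold lower. By spike-in controls Cdkn1a (log2 0.81) and Wnt4 (log2 0.71) fell short of 2-fold and Ptger3 (log2 -1.09) passed it. With the 67th percentile floor only bounds were left, 0.58 for Cdkn1a and 0.66 for Wnt4. Further probe sets at the main floor gave 0.93 for Wnt4 and a bound of 1.83 for Cdkn1a. The list of Müllerian duct and uterine patterning genes shares Emx2 and Wnt4. At brightest probe sets 3 of its 11 measured genes were past 2-fold upwards (7.73% of all genes) and none downwards (4.75% of all genes). Further probe sets passed it downwards for Pax8 (207 and 58.4, log2 -1.82) and, as above, Wnt5a. This list had a median of -0.07. Its other extremes were Foxa2, a gland regulator, 2.40-fold higher from 23.0 (log2 0.97 by spike-in controls), and Wnt5a at -0.44.

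Of other developmental homeobox genes, 10 of 30 with a probe set were measured. Among these, 3 were past 2-fold upwards (7.73% of all genes) and 3 downwards (4.75% of all genes). The targeted genes were among the lower ones: Msx1 read 3474 and 42.3, and Msx2 63.4 and 23.6. Satb1, a chromatin organiser with a homeodomain, was 4.85-fold higher, from 23.6, close to the floor, to 115. Further probe sets that crossed the floor gave log2 bounds of 1.39 and 1.93. With the 67th percentile floor Satb1 had a log2 bound of 0.66.

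Markers of other cell types differed between the arrays. Epithelial markers (11 with a probe set, all above the floor on both arrays) were below 0 for 8 of 11 (43.0% of all genes). Their median log2 difference was -0.10, with summed signals of 37516 in control cells and 38010 in null cells. By spike-in controls 10 of 11 were below 0, with a median of -0.39. Stromal markers, present on both arrays, were higher in the null for 13 of 14 (median 0.68, summed signals 10234 and 13445), as were 6 of 8 measured smooth muscle markers (median 1.07, summed signals 495 and 1152) and 8 of 10 macrophage markers (median 0.79, summed signals 5399 and 5998). With spike-in scaling the medians were 0.39 for stroma (12 of 14 above 0), 0.93 for smooth muscle (6 of 8) and 0.49 for macrophages (7 of 10). The smooth muscle genes Myh11, Cnn1 and Actg2 were below the floor in the control alone, and Myocd and Lmod1 on both arrays. Endothelial markers were above 0 for 8 of 9, or 3 of 8 by spike-in controls (median 0.16, summed signals 551 and 737), and mesothelial markers were below 0 for 7 of 7 (median -0.57, summed signals 1613 and 1123). Their part in the values of Hoxb9, Hoxd8, Hoxd10, Hoxa10, Meis2, Pbx3 and Emx2 was not tested.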

How the data were processed

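Deposited values are MAS5 signal intensities, on a linear scale. Per the submitters' processing notes, Affymetrix Expression Console (version 1) made them. The MAS5 method takes off a background based on mismatch probes and gives arrays a common scale: the 2% trimmed mean was 150.001 for either array, so a difference in total RNA per cell would not show. Genome build and pooling are not given in the sources used here. Names of probe sets come from the platform annotation, and all 33 member genes matched a RefSeq symbol (GRCm38.p6).

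Signals were taken to log2 in Python 3.11.15. Values below the floor (50th percentile of non-control signals, 21.1) were set to it, and folds against them are bounds. A gene took its brightest probe set by mean log2 signal; the call was 2-fold. Every member is accounted for. By rule, values are given for members at least 1.5-fold apart or among the 10 brightest, and for up to 4 extremes of each other list. Members, lists and settings were chosen with earlier results of these data known. Promoter motifs were searched as exact letters. The procedure was tested on simulated data, with changes planted in genes well above the floor in the control. That test does not cover calls near the floor. Alternatives were 4 scalings (array medians, quantile, loess with a span of 0.3, spike-in controls), a lower (33rd percentile) and a higher (67th percentile) floor, a pseudocount of 16 in place of the floor, the median over probe sets, omission of probe sets with shared sequence, calls at 1.5-fold and 3-fold, and a restriction to genes above the floor on both arrays.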

Additional observations from a re-analysis of the deposited data

How the results depend on the processing

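No paired analysis was possible because each genotype has 1 array. Hoxb9 was the member at least 2-fold higher under all 4 other scalings, with the median over probe sets and at 3-fold. With the floor at the 33rd percentile 3 of 25 measured Hox genes were higher (Hoxb9, Hoxc8 and Hoxc9), where 9.15% of all genes were. With the floor at the 67th percentile 0 of 8 were higher, where 5.48% of all genes were. Hoxb9 then had only a bound of 0.49. At a threshold of 1.5-fold 3 of 17 were higher (Hoxb9, Hoxd8 and Hoxd10), where 17.5% of all genes were. Set to spike-in controls, 1 of 17 was lower (Hoxa9, -1.09), where 8.96% of all genes were. At the 33rd percentile floor 1 of 25 was lower (Hoxa5), where 5.41% of all genes were. At 1.5-fold 1 of 17 was lower (Hoxa9), where 12.0% of all genes were. Spike-in scaling moved the median of all genes from 0.08 to -0.20. Relative to that median, Hoxb2 to Hoxb6 stood at -0.31 as reported and -0.32 with spike-in scaling. Hoxa9 to Hoxa11 with Hoxd8 to Hoxd10 stood at 0.32 and 0.31. Spike-in scaling shifts log2 differences above the floor by a constant, so these distances were near equal in advance and check nothing. Both groups were formed after their values were seen. All measured genes of Hoxb2 to Hoxb6 were below 0 in every setting. With spike-in scaling 4 of the 6 posterior genes were above 0. With a pseudocount of 16 and no floor Hoxb9 stood at 1.37. Hoxc6 stood at 0.50 with the lower floor and 0.21 with spike-in scaling. For Hoxa5, Hoxc4, Hoxc8 and Hoxc9, with 1 array below the floor, signals allow only bounds.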
